A study of Mus musculus with 33 samples.

Results

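The genes described here are 8 components of the Hedgehog pathway, namely the transcription factors Gli1, Gli2 and Gli3, the ligand co-receptors Gas1, Cdon and Boc, the ligand receptor Ptch1 and the signal transducer Smo. They were found by gene symbol in the deposited count files, where all 8 were present among 18853 gene rows. Single cells of the hippocampal neurogenic niche of wild-type C57BL/6 mice had been measured by SORT-seq, a plate-based method that counts the 3′ ends of transcripts with unique molecular identifiers (UMIs). Neurons were depleted, and live niche cells were sorted that bound neither an antibody to GluR1, which neurons carry, nor one to Cd24, a surface protein of neuroblasts among other cells. The data comprised 1 library of GFP-positive hippocampal cells of NestinGFP mice, which carry a fluorescent reporter named for the neural progenitor protein nestin, 1 niche library of mice older than 12 months and 31 niche libraries of 5 experiments, whose mice have no age in the labels.

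Hedgehog ligands bind Ptch1, which in their absence holds Smo inactive, and Gas1, Cdon and Boc present the ligand to Ptch1. Active Smo changes the processing of Gli2 and Gli3, of which Gli2 acts mainly as an activator and Gli3 mainly as a repressor, and Gli1 is an activator that is itself a target of the pathway. In the adult dentate gyrus, Hedgehog signalling is known for maintaining neural stem cells, and Gli1 is used as a marker of cells that receive the signal.

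The experiment, as numbered in the labels, served as the replicate. The number of mice behind an experiment is unknown. The tests took out shifts shared by all classes of an experiment. Their p-values rest on how class differences vary between experiments, estimated over 5 classes together, and this variation may be technical. Wells with at least 1000 transcripts were kept, which gave 435, 381, 155, 141 and 173 cells in experiments 1 to 5 with medians of 3526, 6121, 4055, 12392 and 1943 transcripts per cell. Cells were grouped by clustering without the Hedgehog genes and named from marker genes, hence "-like". The niche libraries held 52 neural stem cell-like cells, 272 oligodendrocyte precursor-like cells, 219 astrocyte-like cells, 239 progenitor and neuroblast-like cells, 68 mature oligodendrocyte-like cells and 292 microglia-like cells. A class entered a comparison where an experiment held at least 5 of its cells, so stem cell-like cells were compared in experiments 1, 2, 3 and 5, with 5, 27, 12 and 7 cells. The summed level of the 17 stem cell markers was 6542 to 10879 CPM (a gene's counts divided by all counts of the class and experiment, scaled to 1e6) in stem cell-like cells, against 2226 to 3853 CPM in astrocyte-like cells and 1300 to 2972 CPM in progenitor and neuroblast-like cells. The 19 astrocyte markers summed to 25157 to 42700 CPM in stem cell-like cells, against 38314 to 58984 CPM in astrocyte-like cells and 1459 to 3396 CPM in progenitor and neuroblast-like cells. The 18 neuroblast markers averaged 9598 CPM in progenitor and neuroblast-like cells, and the 14 oligodendrocyte precursor markers 21008 CPM in their class, against 501 and 2074 CPM in astrocyte-like cells. Some clusters followed experiments: 43 of the 81 progenitor and neuroblast-like cells of experiment 4 formed a neuroblast-like cluster, led by Cd24a, that held no cell of another library group, and most oligodendrocyte precursor-like cells fell into different clusters in experiments 1 and 2. The progenitor and neuroblast-like class held 4 cells with over 90 counts each of Ttr, a gene of choroid plexus cells, and these carried 2 Gas1 counts, 1 Boc count and no count of the other 6 genes.

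The members lie on 6 chromosomes. By the GENCODE vM21 annotation of GRCm38, Gli1 spans chr10:127329882-127341974 on the minus strand, Gli2 chr1:118834132-119053619 (minus), Gli3 chr13:15463235-15730026 (plus), Gas1 chr13:60174405-60177365 (minus), Ptch1 chr13:63508328-63573598 (minus), Smo chr6:29735503-29761365 (plus), Cdon chr9:35421128-35507652 (plus) and Boc chr16:44485049-44558897 (minus). The 3′ end of Gli1, where this method reads, overlaps the end of Arhgap9 on the other strand, and the sources used here do not say whether counting used strand. Arhgap9 had 0 counts in stem cell-like cells, against 44 counts in microglia-like and 44 in blood and lymphoid-like cells, where Gli1 had 0.

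The RefSeq table of promoters (GRCm38.p6, 250 bases before to 50 bases after a gene's start) held 6 of the 8 genes, all but Gli1 and Boc. The windows of Gli3 and Gas1 are shown because these genes were the most abundant of the 8 in stem cell-like and astrocyte-like cells and were both tested in every comparison, and that of Cdon because its levels set stem cell-like and astrocyte-like cells apart. CpG dinucleotides are in capitals.
Gli3, chr13:15463473-15463772, plus strand: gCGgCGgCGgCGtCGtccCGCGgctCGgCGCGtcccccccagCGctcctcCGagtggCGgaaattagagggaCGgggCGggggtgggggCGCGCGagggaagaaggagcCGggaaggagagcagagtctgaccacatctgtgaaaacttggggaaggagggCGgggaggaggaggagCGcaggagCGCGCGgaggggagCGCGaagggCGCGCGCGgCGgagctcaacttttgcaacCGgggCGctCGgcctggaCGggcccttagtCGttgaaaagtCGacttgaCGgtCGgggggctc
Gas1, chr13:60177486-60177785, minus strand: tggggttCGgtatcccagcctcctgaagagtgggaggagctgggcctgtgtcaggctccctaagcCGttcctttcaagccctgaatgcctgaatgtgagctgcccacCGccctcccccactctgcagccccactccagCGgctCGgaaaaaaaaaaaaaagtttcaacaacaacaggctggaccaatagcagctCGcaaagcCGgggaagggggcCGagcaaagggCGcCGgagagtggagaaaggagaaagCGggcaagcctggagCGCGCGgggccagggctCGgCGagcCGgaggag
Cdon, chr9:35451826-35452125, plus strand: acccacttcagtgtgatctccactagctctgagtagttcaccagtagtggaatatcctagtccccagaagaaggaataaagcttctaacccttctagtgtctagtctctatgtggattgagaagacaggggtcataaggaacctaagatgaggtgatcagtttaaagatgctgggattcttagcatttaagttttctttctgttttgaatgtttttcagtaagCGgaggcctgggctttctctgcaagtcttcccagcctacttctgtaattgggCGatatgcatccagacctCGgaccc
The Gli3 window holds 39 CpG dinucleotides and the Gas1 window 17, whereas the Cdon window holds 3. As GENCODE draws the genes, the Gli3 window starts at 15463473, inside the gene and close to its start at 15463235. The Gas1 window lies wholly before that gene's start, which is at 60177365 on the minus strand. Its 17 CpG dinucleotides thus describe sequence outside the gene as GENCODE draws it. The Cdon window starts at 35451826, far inside a gene that starts at 35421128. The start that GENCODE gives for Cdon was not examined, and the 3 CpG dinucleotides describe the internal window alone. The median over the 32851 promoters of the table is 7. The Gli binding motif GACCACCCA was searched on both strands and is in none of the 6 windows, nor is its looser form GACCNCCCA. Over all promoters of the table, 0.253% hold the first form and 0.977% the second. These letters were searched in this window alone.

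Gas1 was detected in the most cells, with 636 counts in 278 of 1285 niche cells, followed by Smo with 266 counts in 192 cells, Gli3 with 261 counts in 128 cells, Boc with 144 counts in 98 cells and Cdon with 166 counts in 93 cells. Gli1 had 65 counts in 40 cells, Gli2 53 counts in 39 cells and Ptch1 15 counts in 12 cells. Stem cell-like cells gave 4.35% of all niche counts but 61.6% of those of Gli1, 26% of Gas1, 23.8% of Gli3 and 21.2% of Cdon. For Gli2, Smo and Boc the stem cell-like share was 11.3%, 8.67% and 6.94%. The counts are few, so single values below rest on small numbers, and fewer transcripts per cell cannot be told from fewer cells that hold them.

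**Figure D1:**
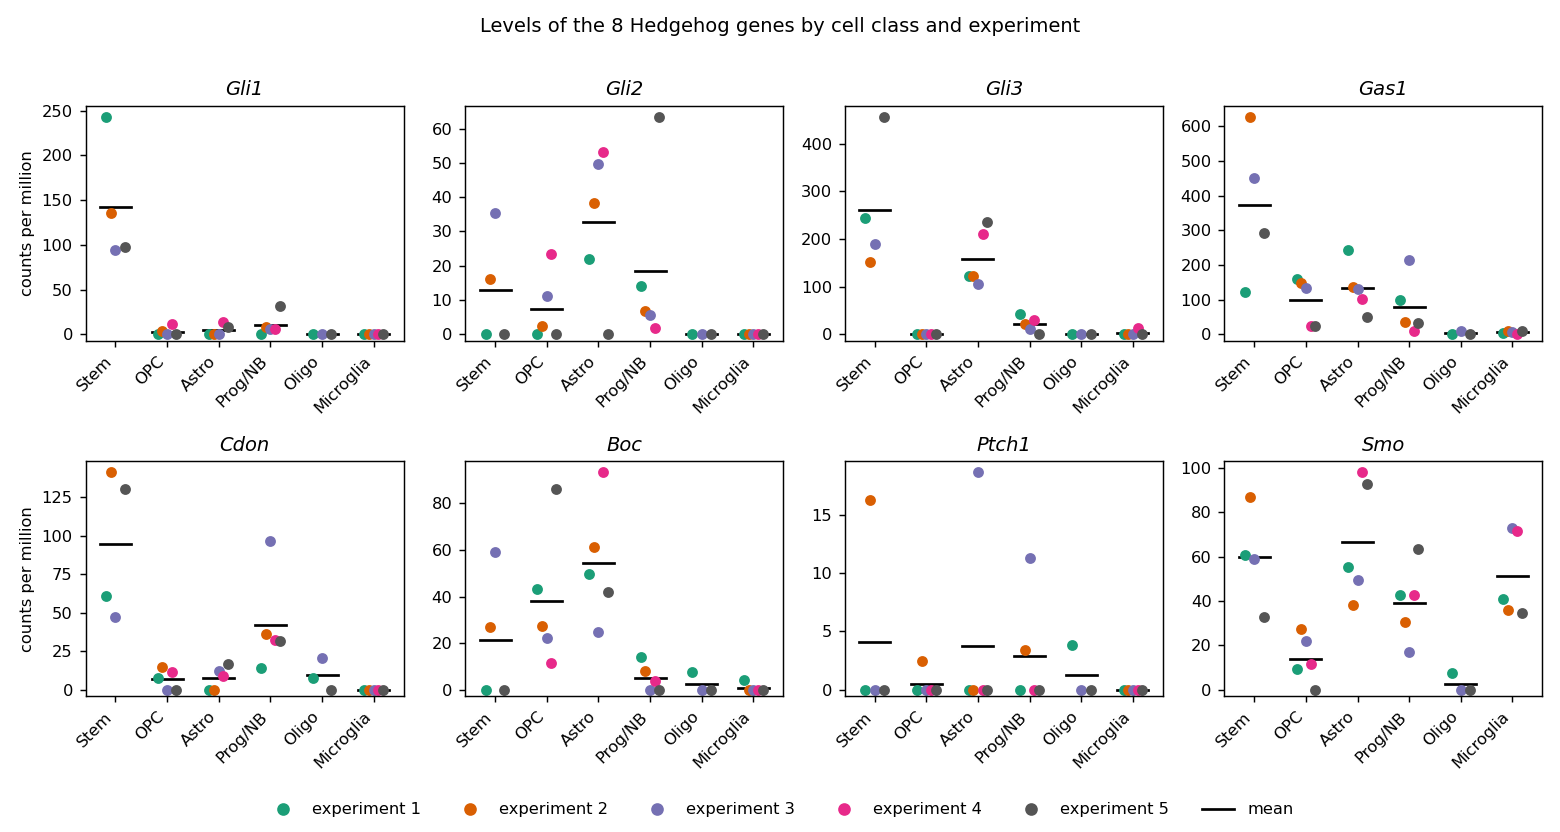
Level of each gene in CPM (y axis, linear) in 6 cell classes of the niche (x axis: stem cell-like, oligodendrocyte precursor-like, astrocyte-like, progenitor and neuroblast-like, mature oligodendrocyte-like, microglia-like), with 1 point per experiment and a line at the mean. All 4 stem cell-like points of Gli1 lie above every point of the other classes, while Gli3 is high in stem cell-like and astrocyte-like cells and at or near 0 in both oligodendrocyte classes.

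Of the transcription factors, Gli1 was highest in stem cell-like cells, above the 5 other classes with values. Its level was 243, 136, 94.3 and 97.8 CPM in the stem cell-like cells of experiments 1, 2, 3 and 5, against 0, 0, 0, 13.3 and 8.42 CPM in the astrocyte-like cells of experiments 1 to 5. It was 0 to 11.6 CPM in oligodendrocyte precursor-like cells, and 0, 7.88, 5.63, 5.48 and 31.7 CPM in the progenitor and neuroblast-like cells of experiments 1 to 5. The stem cell-like values did not overlap with those of the other neural classes. The mean level was 143 ± 69.4 CPM in stem cell-like cells (SD, n = 4), against 4.34 ± 6.19 CPM in astrocyte-like and 10.1 ± 12.4 CPM in progenitor and neuroblast-like cells (SD, n = 5 each). No Gli1 count was seen in the 292 microglia-like and 68 mature oligodendrocyte-like cells. Pooled over experiments, the Gli1 level of stem cell-like cells was 25.8 times that of astrocyte-like cells (exact 95% interval 9.34 to 99.4, counting error only), from 40 and 4 counts. Against microglia-like cells it was at least 46.2-fold higher, with 3 counts over the group as the floor.

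Gli1 was too low for the low-count filter of the main test, in which edgeR's quasi-likelihood F test was run on 1 of 2 random sets of UMIs that had no part in the clustering. In the edgeR fit to all counts it was tested, and its log2 fold change was 4.63 ± 0.79 (SE) for stem cell-like over astrocyte-like cells (adjusted p = 7.3e-06, higher in 4 of 4 experiments). For stem cell-like over progenitor and neuroblast-like cells it was 4.52 ± 0.71 (adjusted p = 1.6e-07, higher in 4 of 4 experiments). Astrocyte-like over progenitor and neuroblast-like cells gave a log2 fold change of −0.11 ± 0.94 for Gli1 (edgeR, adjusted p = 0.94). This value depended on which cells the joined class held: over proliferating progenitor-like cells alone it was −1.60 ± 0.92 (adjusted p = 0.16), and over neuroblast-like cells alone, which had 0 counts of Gli1, the fitted value was 3.85 ± 1.19 (adjusted p = 0.0047) and is no bound. In 16 and 15 alternative fits to all counts, the first 2 calls held with log2 fold changes of 4.13 to 5.53 and 2.98 to 9.19. Gli1 passed the low-count filter of the fit to all counts through stem cell-like cells, the class where it is high. In the edgeR fit without a filter, stem cell-like over astrocyte-like cells gave 4.83 ± 1.10 (adjusted p = 0.0019). Stem cell-like over progenitor and neuroblast-like cells gave 5.44 ± 1.02 there (adjusted p = 6.2e-06).

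Gli3 was shared by stem cell-like and astrocyte-like cells. Among 272 oligodendrocyte precursor-like cells a single Gli3 count was found, in experiment 1, and 1 of 68 mature oligodendrocyte-like cells and 1 of 292 microglia-like cells held any. Gli3 had 243, 152, 189 and 457 CPM in the stem cell-like cells of experiments 1, 2, 3 and 5, against 122, 122, 106, 210 and 236 CPM in the astrocyte-like cells of experiments 1 to 5. Progenitor and neuroblast-like cells had 42.9, 21.4, 11.3, 31.1 and 0 CPM of Gli3, below every stem cell-like and astrocyte-like value. The means were 260 ± 136 CPM in stem cell-like cells (SD, n = 4), 159 ± 59.4 CPM in astrocyte-like cells and 21.3 ± 16.7 CPM in progenitor and neuroblast-like cells (SD, n = 5 each).

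In the main edgeR fit, the log2 fold change of Gli3 was 2.96 ± 0.56 for stem cell-like over progenitor and neuroblast-like cells (SE, adjusted p = 3.1e-06, higher in 4 of 4 experiments) and 2.33 ± 0.48 for astrocyte-like over progenitor and neuroblast-like cells (adjusted p = 8e-06, higher in 5 of 5). These comparisons share the progenitor and neuroblast-like cells. Stem cell-like over astrocyte-like cells gave 0.62 ± 0.48 (adjusted p = 0.55), although the level was higher in 4 of 4 experiments. For oligodendrocyte precursor-like over astrocyte-like cells the fitted log2 fold change was −6.13 ± 0.74 (adjusted p = 1.8e-13, lower in 5 of 5 experiments). Pooled over experiments, the level in oligodendrocyte precursor-like cells lay below that in astrocyte-like cells by a factor of 275, with an exact 95% counting interval of 48.5 to 10939, since the precursor-like value rests on 1 count. Oligodendrocyte precursor-like over progenitor and neuroblast-like cells gave −3.80 ± 0.89 (adjusted p = 0.00013, lower in 4 of 5 experiments and at 0 in both classes of experiment 5). All 4 calls of Gli3 held in each of 19 alternative fits. Gli3 passed the low-count filter of the main fit through stem cell-like and astrocyte-like cells, where it is highest. Without a filter, edgeR gave 2.73 ± 0.54 (adjusted p = 2.1e-05) and 2.32 ± 0.45 (adjusted p = 5.8e-06) for stem cell-like and astrocyte-like over progenitor and neuroblast-like cells. Oligodendrocyte precursor-like cells gave −6.095 ± 0.712 over astrocyte-like (adjusted p = 1.2e-15) and −3.77 ± 0.87 over progenitor and neuroblast-like cells (adjusted p = 0.00026).

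Gli2 had the fewest counts of the Gli factors, and 29 of its 53 niche counts were in astrocyte-like cells. Stem cell-like cells had 0, 16.3, 35.3 and 0 CPM of Gli2 from 6 counts, and oligodendrocyte precursor-like cells had 0 to 23.3 CPM from 5 counts. Gli2 had 22.1, 38.2, 49.7, 53.2 and 0 CPM in the astrocyte-like cells of experiments 1 to 5, against 14.2, 6.74, 5.63, 1.83 and 63.4 CPM in progenitor and neuroblast-like cells, where the last value is 2 counts in 9 cells. The groups overlapped through experiment 5. In the edgeR fit without a low-count filter, its log2 fold change was 2.83 ± 0.77 for astrocyte-like over progenitor and neuroblast-like cells (adjusted p = 0.0026, higher in 4 of 5 experiments). For oligodendrocyte precursor-like over astrocyte-like cells it was −3.44 ± 0.87 (adjusted p = 0.0012, lower in 4 of 5), and for stem cell-like over astrocyte-like cells −1.63 ± 1.01 (adjusted p = 0.80).

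Among the co-receptors, Gas1, a membrane-anchored protein that binds the ligand with Ptch1, reached the highest level of all 8 genes. Oligodendrocyte precursor-like cells of experiments 1 to 5 had 160, 149, 134, 23.2 and 24.7 CPM, which overlapped with both astrocyte-like and progenitor and neuroblast-like cells. Gas1 had 121, 627, 452 and 293 CPM in the stem cell-like cells of experiments 1, 2, 3 and 5, against 243, 138, 131, 102 and 50.5 CPM in the astrocyte-like cells of experiments 1 to 5. Experiment 1, with 5 stem cell-like cells and 2 counts of Gas1 in them, went the other way from the other 3. Progenitor and neuroblast-like cells had 100, 36.0, 213, 9.14 and 31.7 CPM of Gas1. The value of 213 CPM rests on 1 proliferating progenitor-like cell that held 32 of the 38 counts, and without this cell it was 38.5 CPM. The mean levels were 374 ± 217 CPM in stem cell-like cells (SD, n = 4), and 98.2 ± 68.4, 133 ± 70.7 and 78.1 ± 82.9 CPM in oligodendrocyte precursor-like, astrocyte-like and progenitor and neuroblast-like cells (SD, n = 5 each).

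Gas1 rose in stem cell-like over progenitor and neuroblast-like cells by 2.86 ± 0.43 on the log2 scale (SE, edgeR, adjusted p = 5.3e-09, higher in 4 of 4 experiments), and this call held in 19 of 19 alternative fits. Its other calls were less stable. Stem cell-like over astrocyte-like cells gave 1.40 ± 0.42 (adjusted p = 0.017, higher in 3 of 4 experiments), but the call was lost in 8 of 20 alternative fits, among them DESeq2 with an adjusted p of 0.15, the fit to all counts with 0.059, the fit without the experiment as a block with 0.14, and the fits without experiment 2, 3 or 5, where adjusted p-values were 0.48, 0.075 and 0.074. Astrocyte-like over progenitor and neuroblast-like cells gave 1.46 ± 0.42 (adjusted p = 0.0016, higher in 4 of 5 experiments), with 0.92 ± 0.53 (adjusted p = 0.13) without experiment 2, 0.68 ± 0.47 (adjusted p = 0.23) without experiment 4, 2.37 ± 0.49 (adjusted p = 7.2e-06) without experiment 3 and an adjusted p of 0.13 without the block. Oligodendrocyte precursor-like over progenitor and neuroblast-like cells gave 1.18 ± 0.41 (adjusted p = 0.012, higher in 3 of 5 experiments). This call was lost in 10 of 19 alternative fits, with adjusted p-values of 0.055, 0.36 and 0.12 without experiment 1, 2 or 4 and of 0.19 without the block. For oligodendrocyte precursor-like over astrocyte-like cells, Gas1 gave −0.28 ± 0.38 (adjusted p = 0.61).

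Cdon and Boc, related proteins of the immunoglobulin superfamily that bind the ligand, had different distributions. Cdon had 60.7, 141, 47.2 and 130 CPM in the stem cell-like cells of experiments 1, 2, 3 and 5, against 0, 0, 12.4, 8.88 and 16.8 CPM in the astrocyte-like cells of experiments 1 to 5. It had 0 to 14.8 CPM in oligodendrocyte precursor-like cells, and 14.2, 36.0, 96.6, 32.1 and 31.7 CPM in progenitor and neuroblast-like cells. The stem cell-like values lay above every astrocyte-like value and overlapped with the progenitor and neuroblast-like ones. They rest on 35 counts in 19 cells, and that of experiment 1 comes from 5 cells alone. In the edgeR fit to all counts, Cdon gave a log2 fold change of 3.26 ± 0.73 for stem cell-like over astrocyte-like cells (SE, adjusted p = 0.00095, higher in 4 of 4 experiments), a call that held in 15 of 15 alternative fits to all counts. Astrocyte-like over progenitor and neuroblast-like cells gave −2.14 ± 0.67 (adjusted p = 0.0057, lower in 5 of 5 experiments), and oligodendrocyte precursor-like over progenitor and neuroblast-like cells −1.995 ± 0.60 (adjusted p = 0.0047, lower in 5 of 5). Without experiment 3, these 2 calls were lost (adjusted p = 0.063 and 0.13), while that for stem cell-like over progenitor and neuroblast-like cells, at 1.13 ± 0.58 in the full set (adjusted p = 0.13), became 2.04 ± 0.75 (adjusted p = 0.030). Cdon passed the low-count filter of this fit through stem cell-like and progenitor and neuroblast-like cells, where it is highest. In the edgeR fit without a filter, stem cell-like over astrocyte-like cells gave 3.34 ± 0.83 (adjusted p = 0.0071). Astrocyte-like and oligodendrocyte precursor-like over progenitor and neuroblast-like cells gave no call there (adjusted p = 0.064 and 0.11).

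Boc was seen in astrocyte-like and oligodendrocyte precursor-like cells. It had 43.1, 27.2, 22.3, 11.6 and 86.4 CPM in the oligodendrocyte precursor-like cells of experiments 1 to 5 and 49.7, 61.2, 24.8, 93.4 and 42.1 CPM in astrocyte-like cells, against 14.2, 7.89, 0, 3.65 and 0 CPM in progenitor and neuroblast-like cells. Each astrocyte-like value lay above each value of this joined class, in which neuroblast-like cells held 1 count. Proliferating progenitor-like cells alone had 24.2, 37.5, 0 and 8.53 CPM in experiments 1 to 4, which overlapped with astrocyte-like and oligodendrocyte precursor-like values. In stem cell-like cells Boc had 0, 27.1, 59.0 and 0 CPM from 10 counts. In the edgeR fit without a low-count filter, the log2 fold change of Boc was 2.69 ± 0.65 for astrocyte-like over progenitor and neuroblast-like cells (SE, adjusted p = 0.00045, higher in 5 of 5 experiments). It was 2.12 ± 0.65 for oligodendrocyte precursor-like over progenitor and neuroblast-like cells (adjusted p = 0.012, higher in 5 of 5) and −0.57 ± 0.53 for oligodendrocyte precursor-like over astrocyte-like cells (adjusted p = 0.65).

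Smo, the transducer on which all ligand-dependent signalling converges, was present in stem cell-like, astrocyte-like, progenitor and neuroblast-like and microglia-like cells. In oligodendrocyte precursor-like cells of experiments 1 to 5 it was at 9.22, 27.2, 22.2, 11.6 and 0 CPM. Smo had 60.7, 86.8, 58.8 and 32.6 CPM in the stem cell-like cells of experiments 1, 2, 3 and 5, and 55.2, 38.2, 49.6, 98.0 and 92.6 CPM in the astrocyte-like cells of experiments 1 to 5. Progenitor and neuroblast-like cells had 42.8, 30.4, 16.9, 42.9 and 63.4 CPM, and microglia-like cells, in which each of the other 7 genes averaged at most 6.01 CPM, had 40.8, 35.8, 72.9, 71.7 and 34.8 CPM. These 4 classes overlapped with each other. In the edgeR fit to all counts, Smo fell in oligodendrocyte precursor-like over astrocyte-like cells by 2.31 ± 0.50 on the log2 scale (SE, adjusted p = 9.1e-05, lower in 5 of 5 experiments). Astrocyte-like over progenitor and neuroblast-like cells gave 1.27 ± 0.46 (adjusted p = 0.017, higher in 5 of 5), with an adjusted p of 0.055 without the block. Stem cell-like over astrocyte-like cells gave −0.17 ± 0.55 (adjusted p = 0.93). Smo passed the low-count filter of this fit through astrocyte-like and stem cell-like cells, the neural classes where it is highest. In the edgeR fit without a filter, oligodendrocyte precursor-like over astrocyte-like cells gave −2.51 ± 0.545 (adjusted p = 9e-05). Astrocyte-like over progenitor and neuroblast-like cells gave 1.48 ± 0.48 there (adjusted p = 0.014).

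Ptch1, the receptor of the ligands and a pathway target like Gli1, was near the limit of detection. It had 3 counts in stem cell-like cells, all in experiment 2, 2 in oligodendrocyte precursor-like cells, 3 in astrocyte-like cells, all in experiment 3, and 5 in progenitor and neuroblast-like cells. No difference of Ptch1 passed the test in any of the 5 comparisons without a low-count filter, where adjusted p-values ran from 0.47 to 0.90.

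**Figure D2:**
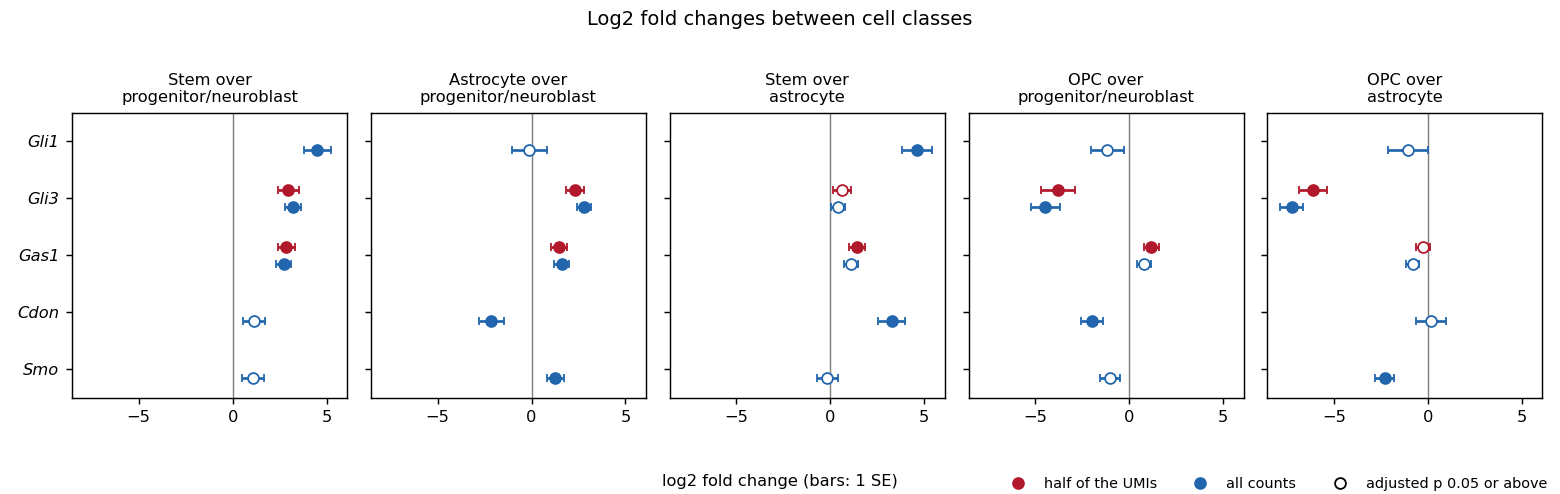
Log2 fold change (x axis) of the 5 genes tested with a low-count filter in the 5 comparisons, from the main edgeR fit to 1 of 2 random sets of UMIs (red) and from the fit to all counts (blue), with bars of 1 SE and open points where the adjusted p was 0.05 or above. Gli1 and Cdon are higher in stem cell-like over astrocyte-like cells, whereas Gli3 lies near 0 there and below −6 in oligodendrocyte precursor-like over astrocyte-like cells.

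The members' calls were read against the share of all genes called. In the main edgeR fit of 2953 genes, 2 of the 8 members, Gas1 and Gli3, passed the low-count filter, and they do not stand for the other 6. Gli3 passed it through stem cell-like and astrocyte-like cells, so its calls are not independent of the filter. Gas1 and Gli3 were both higher in stem cell-like over progenitor and neuroblast-like cells, where 19.8% of genes were higher and 17.1% lower. Both were also higher in astrocyte-like over progenitor and neuroblast-like cells, where 29.1% were higher and 25.9% lower. In stem cell-like over astrocyte-like cells Gas1 was higher, with 2.47% of genes higher and 5.32% lower. In oligodendrocyte precursor-like over progenitor and neuroblast-like cells Gas1 was among the 23% higher and Gli3 among the 20.2% lower. In oligodendrocyte precursor-like over astrocyte-like cells Gli3 was among the 19.8% lower, and 17.6% of genes were higher.

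The fit to all counts tested 5 members among 5841 genes. Gli1 passed its filter through stem cell-like cells, and Cdon through stem cell-like and progenitor and neuroblast-like cells. Gli3 and Smo passed it through stem cell-like and astrocyte-like cells. The calls of these genes are thus not independent of the filter. In stem cell-like over progenitor and neuroblast-like cells Gli1, Gli3 and Gas1 were higher (16.7% of genes higher, 16.4% lower). In astrocyte-like over progenitor and neuroblast-like cells Gli3, Gas1 and Smo were higher and Cdon lower (25.1% and 23.1%). In stem cell-like over astrocyte-like cells Gli1 and Cdon were higher (2.05% higher, 5.62% lower). In oligodendrocyte precursor-like over progenitor and neuroblast-like cells Gli3 and Cdon were lower (18.1% lower, 19.6% higher), and over astrocyte-like cells Gli3 and Smo were lower (18.4% lower, 15.2% higher).

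Without a filter, all 8 members were tested among 16345 genes, many with few counts. In stem cell-like over progenitor and neuroblast-like cells 3 of 8 members were higher (Gli1, Gli3 and Gas1), where 3.69% of genes were higher and 4.45% lower. In stem cell-like over astrocyte-like cells 2 of 8 were higher (Gli1 and Cdon), where 0.306% of genes were higher and 1.01% lower. In astrocyte-like over progenitor and neuroblast-like cells 5 of 8 were higher (Gli2, Gli3, Gas1, Smo and Boc), where 8.52% of genes were higher and 9.13% lower. In oligodendrocyte precursor-like over progenitor and neuroblast-like cells Boc was higher, as were 7.27% of genes, and Gli3 lower, as were 6.04%. In oligodendrocyte precursor-like over astrocyte-like cells Gli2, Gli3 and Smo were lower, as were 5.79% of genes, while 6.01% of genes and none of the members were higher by edgeR, at an adjusted or an unadjusted p under 0.05.

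The progenitor and neuroblast-like class joins cycling progenitors and neuroblasts, and the levels of the members in each are given here. Gli1 had 14 counts in 61 proliferating progenitor-like cells, at 0, 37.5, 13.4 and 17.1 CPM in experiments 1 to 4, and 0 counts in 175 neuroblast-like cells of 5 experiments. Pooled, the Gli1 level in stem cell-like cells was 5.91 times that in proliferating progenitor-like cells (exact 95% interval 3.15 to 11.8, counting error only) and at least 67.1-fold higher than in neuroblast-like cells, with 3 counts over the group as the floor. Gli3 had 73.0, 32.1, 13.4 and 62.9 CPM in proliferating progenitor-like cells of experiments 1 to 4, and 0, 18.5, 9.73, 16.1 and 0 CPM in neuroblast-like cells of experiments 1 to 5. Cdon had 0, 64.2, 203 and 66.0 CPM in proliferating progenitor-like cells and 34.5, 28.5, 19.5, 16.1 and 0 CPM in neuroblast-like cells. Gas1 had 171, 75.0, 440 and 22.8 CPM in proliferating progenitor-like cells, where the 440 rests on the single cell above, and 0, 25.6, 49.0, 2.68 and 0 CPM in neuroblast-like cells. Boc had 11 counts in proliferating progenitor-like cells, at 24.2, 37.5, 0 and 8.53 CPM, and 1 count in neuroblast-like cells. Smo had 33 and 48 counts in these classes, at 48.4 ± 5.87 CPM (SD, n = 4) and 34.8 ± 27.7 CPM (SD, n = 5). Gli2 had 6 counts in each, at 8.78 ± 7.32 CPM in proliferating progenitor-like cells (SD, n = 4) and 38.3 ± 65.5 CPM in neuroblast-like cells (SD, n = 5), so it overlapped. The difference between the 2 classes was not tested.

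**Figure D3:**
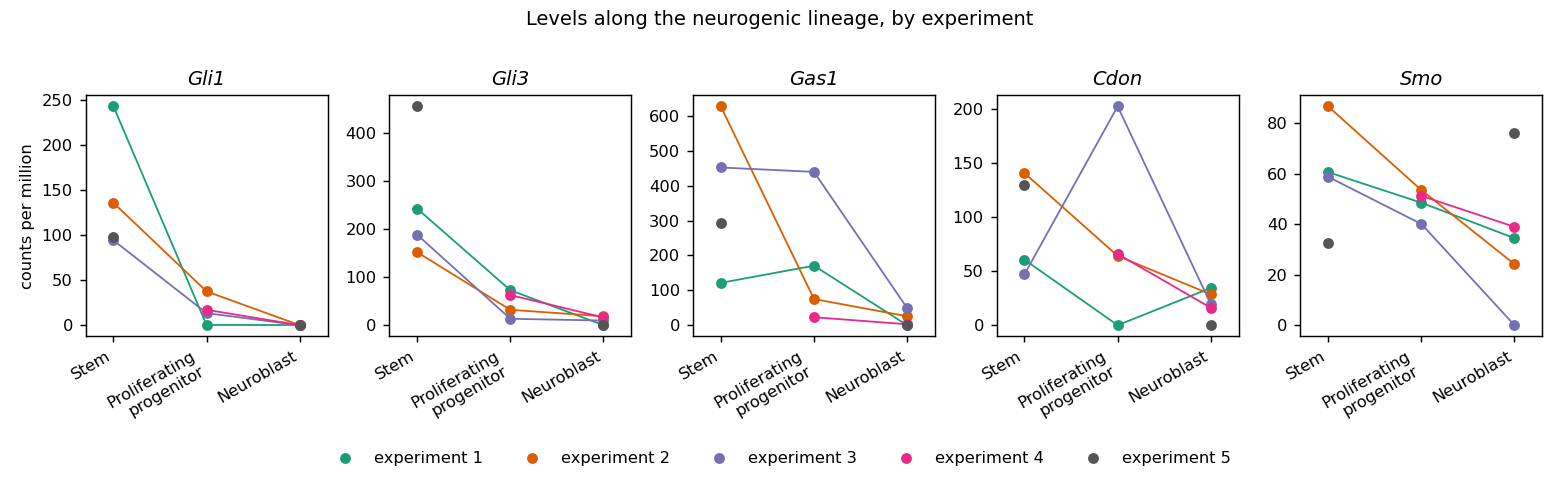
Level in CPM (y axis, linear) of 5 genes in stem cell-like, proliferating progenitor-like and neuroblast-like cells (x axis), with 1 colour per experiment and lines joining neighbouring classes of 1 experiment. Gli1 is at 0 in all 5 neuroblast-like points, and Gli3 is highest in stem cell-like cells in each of the 3 experiments with all 3 classes.

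When the joined class was replaced by proliferating progenitor-like cells alone, Gas1 gave a log2 fold change of 0.25 ± 0.44 for astrocyte-like over these cells (SE, edgeR, adjusted p = 0.67) and 0.07 ± 0.43 for oligodendrocyte precursor-like over these cells (adjusted p = 0.92). Against neuroblast-like cells alone the same changes were 3.20 ± 0.53 (adjusted p = 2.2e-08) and 2.93 ± 0.52 (adjusted p = 3.3e-07). For Smo in the fit to all counts, the change in astrocyte-like over proliferating progenitor-like cells was 0.77 ± 0.53 (adjusted p = 0.25).

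Astrocyte-like cells fell into 3 clusters, led by Clu and Acsbg1, by Grin2c and Gja1, and by Sycp2 and Hsd11b1. Gli3 averaged 118 ± 64.7 CPM in the first (SD, n = 4), 179 ± 61.1 CPM in the second (SD, n = 5) and 165 ± 110 CPM in the third (SD, n = 3), so the clusters overlapped. Gli2 had 25 of its 29 astrocyte-like counts in the second cluster, at 40.6 ± 29.5 CPM (SD, n = 5), against 3.43 ± 6.85 CPM in the first (SD, n = 4) and 30.7 CPM in the third (0 to 50.3 CPM, n = 3, 3 counts), so the clusters overlapped for Gli2 too. The second cluster also held 97 of the Gli3 counts of astrocyte-like cells and all 4 of Gli1. Clusters were drawn from other genes of the same cells, and these values are given without a test.

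The share of cells with a UMI depends on depth, and the median number of transcripts was 5250 in stem cell-like, 5502 in oligodendrocyte precursor-like, 2057 in astrocyte-like, 7754 in progenitor and neuroblast-like and 3082 in microglia-like cells. Each cell was therefore thinned to 1000 UMIs, which left out 1 astrocyte-like cell and no cell of the other 4 classes. A UMI of Gas1 was then seen in 30.8% of stem cell-like cells (exact 95% interval 18.7 to 45.1%), 9.93% of oligodendrocyte precursor-like cells (6.64 to 14.1%), 12.4% of astrocyte-like cells (8.32 to 17.5%), 3.77% of progenitor and neuroblast-like cells (1.74 to 7.03%) and 0.685% of microglia-like cells (0.083 to 2.45%). Gli3 was seen in 19.2% of stem cell-like cells (9.63 to 32.5%), 11% of astrocyte-like cells (7.18 to 15.9%), 2.09% of progenitor and neuroblast-like cells (0.683 to 4.81%) and 0.342% of microglia-like cells. For Gli1 the share was 11.5% in stem cell-like cells (4.35 to 23.4%), 0.917% in astrocyte-like cells (0.111 to 3.27%) and 0.418% in progenitor and neuroblast-like cells (0.011 to 2.31%), and 0 of 292 microglia-like cells had one, which allows a share of up to 1.03% when 3 counts are taken as the floor (exact upper bound 1.26%). The share for Smo was 5.05% in astrocyte-like cells (2.55 to 8.85%) and 4.11% in microglia-like cells (2.14 to 7.07%), and it was 1.92% in stem cell-like cells (0.049 to 10.3%). For Cdon, 0 of 52 stem cell-like cells kept a UMI at this depth, which allows up to 5.77% by the same floor (exact upper bound 6.85%), against 1 of 218 astrocyte-like cells. Thinned to 2000 UMIs, 8 of 47 stem cell-like cells (exact interval 7.65 to 30.8%) and 1 of 117 astrocyte-like cells (0.022 to 4.67%) held a UMI of Cdon. The pooled share was thus higher among stem cell-like cells at this depth and not at 1000 UMIs, without a test. Without thinning, 36.5% of stem cell-like cells (23.6 to 51.0%) and 1.83% of astrocyte-like cells (0.5 to 4.61%) held a count of Cdon. Cells were pooled over experiments, so intervals cover counting error only and not the spread between experiments. Differences of shares between classes were not tested.

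**Figure D4:**
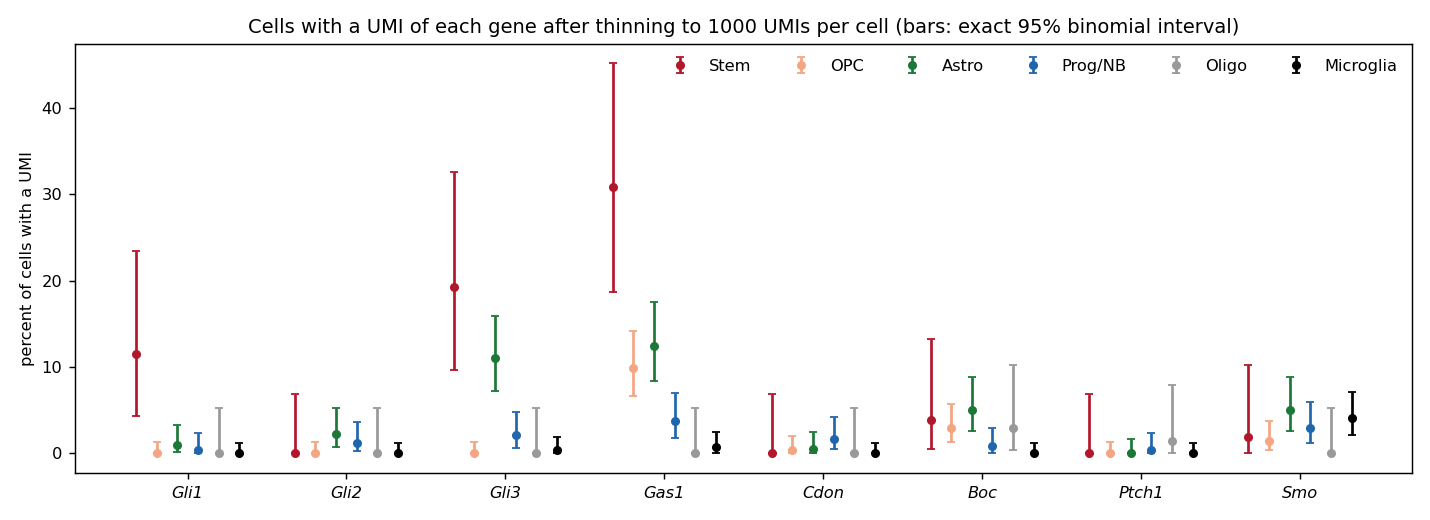
Percent of cells with a UMI of each gene (y axis, linear) after thinning each cell to 1000 UMIs, for 6 cell classes of the niche (colours), with exact 95% binomial intervals as bars. The stem cell-like interval of Gas1 (18.7 to 45.1%) lies above those of the other 5 classes, that of Gli1 (4.35 to 23.4%) above those of all but the mature oligodendrocyte-like class (0 of 68 cells, exact interval to 5.28%), while those of Smo overlap. Cells were pooled over experiments, so the bars cover counting error only and no difference between classes was tested.

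After thinning to 1000 UMIs, 26 of 52 stem cell-like cells held a UMI of at least 1 of the 8 genes, against 14% of oligodendrocyte precursor-like, 33% of astrocyte-like, 13.4% of progenitor and neuroblast-like and 5.14% of microglia-like cells. UMIs of 2 or more of the genes were seen in 8 of 52 stem cell-like cells (15.4%), in 4.13% of astrocyte-like cells, in 0.735% of oligodendrocyte precursor-like cells and in no progenitor and neuroblast-like or microglia-like cell. Before thinning, 71.2% of stem cell-like cells and 25.6% of astrocyte-like cells held counts of at least 2.

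The library of NestinGFP cells held 91 astrocyte-like, 69 oligodendrocyte precursor-like, 91 mature oligodendrocyte-like and 45 progenitor and neuroblast-like cells but 3 stem cell-like ones, so no stem cell-like level is given. In its astrocyte-like cells Gli1 was at 60.4 CPM (exact Poisson 95% interval 40.2 to 87.3 CPM), from 28 counts in 12 cells, against 0 to 13.3 CPM in the astrocyte-like cells of the 5 niche experiments. Of these NestinGFP cells, 67 of 91 fell in the astrocyte-like cluster led by Grin2c and Gja1, against 76 of 219 in the niche. These 67 held 27 of the 28 counts, while a single cell held 8. In the niche cells of the same cluster Gli1 averaged 7.02 CPM (0 to 21.8 CPM, n = 5, 4 counts). The part of cluster make-up in the Gli1 level was not tested. Gas1 was at 237 CPM (195 to 286) in these NestinGFP cells, within the range of 50.5 to 243 CPM of the niche experiments, and Gli3 at 177 CPM (141 to 220), within 106 to 236 CPM. Boc, Smo, Gli2 and Cdon, at 58.3, 47.5, 17.3 and 10.8 CPM, likewise lay within the niche ranges. The summed level of the stem cell markers in the NestinGFP astrocyte-like cells was 1978 CPM, against 2226 to 3853 CPM in those of the niche experiments, and their part in the Gli1 level was not tested. With 1 library there is no replicate check of these differences.

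In the library of mice older than 12 months, oligodendrocyte precursor-like cells had Gas1 at 263 CPM (exact Poisson 95% interval 192 to 350 CPM), from 46 counts in 21 cells, against 23.2 to 160 CPM in the niche experiments. Of these cells, 20 fell in the precursor-like cluster led by Matn4 and Cspg4, where Gas1 was at 266 CPM (195 to 355) in the old library, 170 CPM (134 to 212) in the NestinGFP library and 156 CPM (128 to 187) in niche experiment 2. Gli1, Gli2 and Gli3 had 0 counts in these cells. A single stem cell-like cell and 7 astrocyte-like cells were found in this library, so their levels are not compared. This comparison has no replicate check either, and library and age cannot be told apart.

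The other 53 pathway genes of 5 lists (9 for ligands and their release, 10 for other cell surface regulators, 18 acting inside the cell, 10 of cilium transport and 8 reported Gli targets, some genes being in 2 lists) were all in the files, and 14 passed the low-count filter of the main edgeR fit. Over all genes tested, the median log2 fold change lay between −0.05 and 0.07 in the 5 comparisons. In stem cell-like over progenitor and neuroblast-like cells, 3 of the 14 were higher and 3 lower, beside 19.8% and 17.1% of all genes, with a median of −0.56 against −0.03 for all genes. In astrocyte-like over progenitor and neuroblast-like cells 2 were higher and 6 lower, beside 29.1% and 25.9% of all genes, with a median of −0.76 against 0.00 for all genes. Stem cell-like over astrocyte-like cells gave no call by edgeR among the 14 (median 0.55), where 2.47% of all genes were higher and 5.32% lower, with 4 higher at an unadjusted p under 0.05, and none by DESeq2, with 3. The fit to all counts, which tested 23, called 2 higher (Mycn and Bcl2) and 1 lower (Cul3), beside 2.05% and 5.62% of all genes. Oligodendrocyte precursor-like over progenitor and neuroblast-like cells gave 4 higher and 2 lower, beside 23% and 20.2% of all genes. Over astrocyte-like cells, 6 were higher and 1 lower in oligodendrocyte precursor-like cells, beside 17.6% and 19.8% of all genes.

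At the cell surface, Gpc5, a glypican that binds Hedgehog ligands, was higher in stem cell-like over progenitor and neuroblast-like cells by 4.65 ± 0.63 on the log2 scale (SE, edgeR, adjusted p = 7.4e-11), in astrocyte-like over these cells by 4.86 ± 0.51 (adjusted p = 8.4e-17) and in oligodendrocyte precursor-like over these cells by 4.08 ± 0.54 (adjusted p = 1.4e-11). Hhip, a ligand-binding inhibitor and pathway target, was higher in stem cell-like over progenitor and neuroblast-like cells by 3.86 ± 1.28 (adjusted p = 0.010) and in oligodendrocyte precursor-like over these cells by 3.95 ± 1.05 (edgeR, adjusted p = 0.00081). Both rest on few counts, since all UMIs held 10, 25 and 3 counts of Hhip in stem cell-like, oligodendrocyte precursor-like and progenitor and neuroblast-like cells. The last class was at 4.16 ± 6.10 CPM (SD, n = 5). Hhip passed the low-count filter through mature oligodendrocyte-like cells. Oligodendrocyte precursor-like over astrocyte-like cells gave 2.81 ± 1.13 for Hhip (edgeR, adjusted p = 0.038), a call lost in the fit to all counts (1.47 ± 0.84, adjusted p = 0.18). Its level was 35.3 ± 29.6 CPM in stem cell-like cells (SD, n = 4), 27.5 CPM in oligodendrocyte precursor-like cells (0 to 66.8 CPM, n = 5), 4.98 ± 4.87 CPM in astrocyte-like cells (SD, n = 5) and 278 ± 111 CPM in mature oligodendrocyte-like cells (SD, n = 3), in which no count of Gli1, Gli2 or Gli3 was found in the 3 experiments compared.

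Inside the cell, the casein kinase Csnk1e, which acts on Gli proteins, was lower in stem cell-like (−1.83 ± 0.47, SE, edgeR, adjusted p = 0.00072), astrocyte-like (−2.67 ± 0.40, adjusted p = 1.3e-09) and oligodendrocyte precursor-like cells (−1.55 ± 0.32, adjusted p = 1.6e-05), each over progenitor and neuroblast-like cells. Gsk3b, another kinase of Gli proteins, was lower in stem cell-like (−1.41 ± 0.47, adjusted p = 0.011) and astrocyte-like cells (−1.42 ± 0.36, adjusted p = 0.00032) over the same cells. Of the cilium list, Kif3a, a motor subunit of transport in the primary cilium, was tested alone and was higher in oligodendrocyte precursor-like over astrocyte-like cells by 1.59 ± 0.28 (adjusted p = 4.2e-07).

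Among the reported Gli targets, the cyclin Ccnd2 changed in stem cell-like over progenitor and neuroblast-like cells by −2.55 ± 0.37 on the log2 scale (SE, edgeR, adjusted p = 1.8e-09), while Bcl2, an inhibitor of cell death, was higher by 2.87 ± 0.50 (adjusted p = 3.9e-07). Ccnd2 had 136 ± 137 CPM in stem cell-like cells (SD, n = 4) and 1383 ± 511 CPM in progenitor and neuroblast-like cells (SD, n = 5). Bcl2 had 343 ± 72.2 CPM in stem cell-like cells (SD, n = 4), 112 ± 54.4 CPM in astrocyte-like cells and 33.5 ± 22.7 CPM in progenitor and neuroblast-like cells (SD, n = 5 each). Ccnd1, the cyclin paralog, was higher in oligodendrocyte precursor-like over astrocyte-like cells by 5.55 ± 0.53 (adjusted p = 1.9e-19), at 538 ± 241 and 9.08 ± 4.26 CPM (SD, n = 5 each). Of the 4 targets tested, 2 were higher and 1 lower in stem cell-like over progenitor and neuroblast-like cells, where 19.8% of all genes were higher and 17.1% lower.

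Ligands were scarcely seen in the classes compared. Neurons had been depleted, and the 8 mature neuron-like niche cells are not among these classes, so ligand levels in neurons are not shown. Shh had 5 counts in the classes compared, all in oligodendrocyte precursor-like cells, Ihh had 3 counts in progenitor and neuroblast-like cells, and Dhh had 0 counts in every class compared. Disp2, of the family that releases lipid-bearing ligands, had 117 ± 40.5 CPM in oligodendrocyte precursor-like cells, 7.75 ± 5.50 CPM in astrocyte-like cells and 60.8 ± 39.3 CPM in progenitor and neuroblast-like cells (SD, n = 5 each). In the edgeR fit to all counts its log2 fold change for oligodendrocyte precursor-like over astrocyte-like cells was 3.59 ± 0.57 (SE, adjusted p = 8.2e-08).

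Over 34 sums of experiment and class and 2953 genes, the level of Gli3 ranked most like those of Fzd2, a Wnt receptor (Spearman rho 0.88), Kcnn2, a potassium channel (0.87), and Fgfr1, a fibroblast growth factor receptor (0.86). Gas1 ranked most like Lphn1 (0.86), Mlc1 (0.85) and Igdcc4 (0.84). The 34 sums come from 5 experiments and are not independent, and the values describe likeness of level only.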

How the data were processed

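The submitters' processing notes name BWA 0.6.2-r126 and the mm10 build, while no source used here gives the gene annotation or how reads were counted. The authors deposited estimated counts for each gene and well, which hold a correction for UMI saturation: undoing it returned integers (tolerance 0.05) for 99.59% to 100% of the values in each library. For experiment 2 the labels call the reads a resequencing of the original libraries. Spike-ins, mitochondrial rows and rows naming no gene were left out (rows other than spike-ins make up 9.49% of the NestinGFP and 6.43% of the old library's values), and 1285 of 3840 niche wells were kept. No well was identical to one of another library.

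The estimated counts were rounded and the UMIs of each cell divided at random into 2 sets. The first set was clustered with scanpy 1.11.5 (2000 variable genes chosen across experiments, 30 principal components, 15 neighbours, Leiden at resolution 1) without the Hedgehog genes, and neurogenic and astrocyte clusters were clustered once more. Names came from 15 marker sets, each name needing 3 markers found in 10% of a cluster's cells and a score of 0.5, or 0.3 in the second round. These thresholds were set after seeing the data. No doublet caller was run, and an alternative leaves out cells with markers of a second class. The second set was summed per experiment and class (at least 5 cells) and tested with edgeR 4.0.16 in R 4.3.3 (filterByExpr, TMM, quasi-likelihood F test, Benjamini-Hochberg over all genes) in 1 fit of 5 neural classes with experiment as a block. SE was derived from the log2 fold change and F. Classes of 1 experiment deviated together, with a median correlation of 0.28 over 39 pairs (lowest 0.02), against −0.04 between experiments. The pairing comes from the experiment numbers of the labels. The test was also run on simulated sums with known changes in each of the 5 comparisons. These sums had 1 spread shared by all genes and no difference between experiments, unlike the data. They therefore do not show how the test performs on these data. Genes that miss the filter are given from the fit to all counts or from the fit without a filter, and the fit used is named beside each value. CPM come from all counts, and counting 3′ ends needs no division by length.

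The members, lists, markers and tests were chosen with earlier results of these data known. All 8 members are named, of other pathway genes up to 4 per list and comparison by smallest p among those called, and as genes of like pattern the 3 with the highest Spearman correlation of log2(CPM + 10). A further deposited table of values scaled per cell was not used here.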

Additional observations from a re-analysis of the deposited data

Results flagged for a closer look

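Within each class, the highest and the lowest experiment were compared with the nearest other by Dixon's ratio. Its threshold marks about 1 in 20 groups by chance where values are normally distributed, which levels from few counts are not. Of 36 groups with values that vary, 9 had a value far from the others, and all 9 were high. Where a single experiment holds all the counts, its value is marked whatever its size, and no level can fall below the absence of counts. Neither the number nor the direction of the 9 can therefore be read against chance. Cdon was at 96.6 CPM in the progenitor and neuroblast-like cells of experiment 3, from 17 counts in 29 cells, where the next highest experiment had 36.0 CPM. The other 8 rest on 1 to 3 counts. In progenitor and neuroblast-like cells of experiment 5, with 9 cells, Gli1 was at 31.7 CPM (1 count) and Gli2 at 63.4 CPM (2 counts). Single experiments held all the counts of Ptch1 in stem cell-like cells (16.3 CPM, experiment 2), astrocyte-like cells (18.6 CPM, experiment 3) and oligodendrocyte precursor-like cells (2.47 CPM, experiment 2), of Gli3 in oligodendrocyte precursor-like cells (1.54 CPM, experiment 1) and microglia-like cells (14.3 CPM, experiment 4), and of Boc in microglia-like cells (4.29 CPM, experiment 1).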

How the results depend on the processing

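The 5 counts of genes called in the main edgeR fit were 1092 (stem cell-like over progenitor and neuroblast-like), 1624 (astrocyte-like over progenitor and neuroblast-like), 230 (stem cell-like over astrocyte-like), 1275 (oligodendrocyte precursor-like over progenitor and neuroblast-like) and 1106 (oligodendrocyte precursor-like over astrocyte-like). In the same order, testing all counts gave 1930, 2814, 448, 2205 and 1963, with 5841 in place of 2953 genes tested. Without a filter the last 2 and the second became 2176, 1930 and 2885. A fit of the compared classes alone gave 368 for the first and 712 for the fourth, with fewer samples. Leaving out 1 experiment at a time gave 665 to 1277, 1075 to 2149, 90 to 237, 788 to 1639 and 723 to 1399. Without the replicate block the count for stem cell-like over astrocyte-like cells was 107, and the pairing also carried the calls of Gas1 and Smo named above. Of 193 alternative values of Gas1 and Gli3, 171 kept direction and call and 22, all of Gas1, were weaker. For Gli1, Cdon and Smo, with all counts and alternatives added after seeing the data, 207 of 216 kept both. With neuroblast-like cells alone, where Gli1 has 0 counts, its change reversed to 3.85 in astrocyte-like and 3.34 in oligodendrocyte precursor-like cells. All 120 alternative mean levels stayed within 1 SD, and 41 of 96 shares of cells moved beyond their interval, since thinning sets them. A minimum of 3 cells left the sums as they were. Few counts, above all of Ptch1, Gli2 and Gli1, limit what these data can show.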
